A study of Mus musculus with 2 samples.

Results

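Il17a-type gamma-delta T cells were studied among CD45-positive leukocytes from MC38 tumors, a mouse colon adenocarcinoma line grown under the skin of the flank. A barcode of a droplet library counted as such a cell, here called a member, by its unique transcript counts (UMIs). It needed at least 500 UMIs, at least 300 genes and at most 10% mitochondrial UMIs. It needed at least 2 UMIs summed over Cd3d, Cd3e, Cd3g, Trdc and Tcrg-C1, and at least 1 UMI of Il17a, Cd163l1 or Trdv4. It had to have no UMI of Cd8a or Cd8b1, at most 1 of the NK cell genes Ncr1 and Klre1, fewer than 5 of Lyz2 and the C1q genes, and at most 3 of the class II genes H2-Aa, H2-Ab1 and H2-Eb1. The rule found 58 members among 5873 cells of the ketogenic diet library and 5 among 5608 cells of the normal diet library, 63 of 11481 cells in all. Both the rule and its genes were picked with the ketogenic diet library in view, so the member counts describe the libraries and carry no test.

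Both groups were female C57BL/6J mice aged 6 to 8 weeks that received 500000 tumor cells in 50% matrigel. One group ate a ketogenic diet from day 4, and the other stayed on a normal diet. Tumors were collected on day 14, dead cells were removed, and CD45-positive cells were taken up with beads. Each library pooled 5 mice and there was 1 library per diet, so differences between mice or libraries cannot be measured. The intervals given here are 95% intervals for counting error alone.

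Gamma-delta T cells carry a T cell receptor built from a gamma and a delta chain in place of the alpha and beta chains. A subset leaves the thymus already set to make interleukin-17A, a cytokine that calls neutrophils through epithelial and stromal cells. In mice these cells often use the Vgamma6 chain with the delta segment encoded by Trdv4, live in barrier tissues and tumors, display the scavenger receptor SCART1 (Cd163l1), and signal through the Src-family kinase Blk.

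The promoters of Il17a and of its neighbour Il17f are shown because these genes encode the cytokines that name the cells and the nuclear receptor that Rora encodes binds the half-site AGGTCA. They are RefSeq sequences of the GRCm38.p6 build, 250 bases before to 50 bases after the start, written 5′ to 3′ in the direction of the gene. Capitals mark AGGTCA or its reverse complement TGACCT. Il17a lies at chr1:20730655-20730954 on the plus strand, and Il17f at chr1:20784221-20784520 on the minus strand.
Il17a: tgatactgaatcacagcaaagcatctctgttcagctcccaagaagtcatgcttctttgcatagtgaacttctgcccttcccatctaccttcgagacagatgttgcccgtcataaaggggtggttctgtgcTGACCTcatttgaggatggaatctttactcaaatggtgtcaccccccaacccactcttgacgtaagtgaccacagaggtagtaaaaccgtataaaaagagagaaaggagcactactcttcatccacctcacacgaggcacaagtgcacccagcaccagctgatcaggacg
Il17f: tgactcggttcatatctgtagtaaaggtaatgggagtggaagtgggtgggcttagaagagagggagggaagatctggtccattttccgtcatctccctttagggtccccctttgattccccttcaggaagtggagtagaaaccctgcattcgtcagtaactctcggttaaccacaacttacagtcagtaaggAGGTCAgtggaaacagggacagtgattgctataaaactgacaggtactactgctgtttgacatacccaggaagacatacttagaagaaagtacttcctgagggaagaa
The Il17a window held TGACCT once, 120 bases before the start, and the Il17f window held AGGTCA once, 58 bases before it. Of 32851 promoters of this length, 5340 (16.3%) held the half-site in either direction, so a match is common and is given as a description only.

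Members were a larger share of the ketogenic than of the normal diet library. They made up 0.988% of cells (0.751 to 1.27, Clopper-Pearson) in the ketogenic diet library, against 0.0892% (0.0290 to 0.208) in the normal diet library. The ratio was 11.1 (4.48 to 35.4), a log2 ratio of 3.47. The log2 ratio was 2.22 without the limits on NK, myeloid and class II genes and 5.61 when at least 2 UMIs of Il17a, Cd163l1 and Trdv4 were asked for. Among T cells under the same exclusions the shares were 11.01% (58 of 527) and 1.39% (5 of 361) in the ketogenic and normal diet libraries. Il17a itself was detected in 39 members of the ketogenic diet library and in 3 of the normal diet library.

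The remaining T cells differed less. They were 7.99% of cells (469 barcodes) in the ketogenic diet library and 6.35% (356 barcodes) in the normal diet library. Their log2 ratio was 0.33 (0.13 to 0.53), and that of the CD8-negative ones among them was 0.50 (0.20 to 0.79). T cells with a Trdc or Tcrg-C1 UMI, no Trac or CD8 UMI and none of Il17a, Cd163l1 and Trdv4 were 0.562% of cells (33 barcodes) in the ketogenic diet library and 0.642% (36 barcodes) in the normal diet library. The log2 ratio of these last shares was −0.19 (−0.92 to 0.53), an interval for counting error alone that includes no difference. In the ketogenic diet library 25 of these 33 barcodes had a Cd3 UMI, and 1 barcode held 46.8% of their UMIs. Trdc was found in 28 of the 33, Tcrg-C1 in 10 and Blk in 0. Nkg7, a cytotoxic granule protein, was in 28 and Klrd1, a subunit of NK receptors, in 26, against 398 and 315 of all 469 remaining T cells. The set therefore need not hold gamma-delta T cells alone.

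The limits on other lineages removed many barcodes. In the ketogenic diet library 203 barcodes had enough T cell UMIs and at least 1 UMI of Il17a, Cd163l1 or Trdv4. Of these, 107 had no CD8 UMI, 71 also met the NK limit, 61 the myeloid limit and 58 the class II limit. In the normal diet library the same steps left 33, 22, 9, 5 and 5 barcodes. The 49 barcodes of the ketogenic diet library that met all but the NK, myeloid or class II limits were deeper, with a median of 7570 UMIs against 2188 in the members (1003 to 9250). Just inside the rule, 7 members had exactly 1 UMI of Il17a, Cd163l1 and Trdv4 together, with 20 Trdc UMIs in all. Just outside it, 241 T cell barcodes had none, with 94 Trdc UMIs. No member sat at the myeloid or class II limit.

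The markers of the normal diet members went against the cell type's name. None of the 5 had a Cd163l1 or Blk UMI, 1 had Trdc, and 3 had Tcrg-C1. Of the 3 with Il17a, the first had 3 Il17a UMIs and 5 of Lck, the second 1 Il17a UMI and 1 of Lck, and the third 1 Il17a UMI with 5 Trac, 3 Lck and 2 Foxp3 UMIs. Foxp3 encodes the regulatory T cell factor. The other 2 entered through 1 Trdv4 UMI each, of which 1 barcode had 4 Trdc UMIs. The results that follow are therefore on the 58 members of the ketogenic diet library.

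Most of those 58 had UMIs of the gamma-delta receptor chains. Trdc, the delta constant chain, was detected in 53 of 58 members, against 45 of 469 other T cells of the same library. Tcrg-C1, a gamma constant chain, was detected in 48 members and in 33 other T cells. Since Trdc and Tcrg-C1 count toward the rule, they check the name and are no finding. Both chains were found in 46 members, neither in 3, and a Cd3 chain in all 58. Other genes were also counted in 353 barcodes marked by the macrophage C1q genes and chosen to have no UMI of Cd3d, Cd3e, Cd3g, Trdc and Tcrg-C1. These barcodes give no background for Trdc or Tcrg-C1. The choice also leaves out barcodes that picked up such T cell RNA, so background of other T cell genes may be understated. Their median depth was 4243 UMIs, against 2188 in members. Il17a was found in 0 of the 353, which allows a share of up to 0.850% in barcodes chosen this way.

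Receptor genes outside the rule differed too. Trac, the alpha constant chain, was detected in 11 of 58 members and 285 of 469 other T cells, at 99.9 CPM (the gene's share of all UMIs summed over the group, times 1000000) in members against 407 CPM in other T cells. The variable segment Tcrg-V6 had 13 UMIs in 11 members, against 2 UMIs in the other T cells, whose summed depth was 1662158 UMIs against 150148 in members. Tcrg-V4 and Tcrg-V1 had no UMI in members, against 2 and 7 UMIs in other T cells. These counts are sparse. The gene 5830411N06Rik, which encodes SCART2, had no UMI in members either, against 2 UMIs in other T cells.

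The other gamma constant chains were more than 2-fold higher in members as well. Tcrg-C2 was 306 CPM in members and 87.2 CPM in other T cells (log2 ratio 1.61, 0.99 to 2.19), and Tcrg-C4 133 CPM and 31.9 CPM (1.56, 0.72 to 2.36). The gamma constant genes resemble each other, so reads may be split among them. The beta chain genes were within 2-fold: Trbc1 reached 833 CPM in members and 775 CPM in other T cells, and Trbc2 1379 CPM and 1554 CPM. Trbc2 was detected in 51 of 58 members and 415 of 469 other T cells, and in 21 of 353 C1q macrophage barcodes. Cd247, the receptor zeta chain, was 333 CPM in members against 110 CPM in other T cells, a log2 ratio of 1.44.

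Il17a was spread unevenly over the members. Their 267 Il17a UMIs lay in 39 barcodes, with a median of 4 UMIs per positive barcode; 6 barcodes had 1 UMI, 17 had at least 5 and 5 had at least 10. The 4 highest barcodes had 54, 33, 22 and 16 UMIs and together 46.8% of the total. In the highest, Il17a was 2.11% of that barcode's 2555 UMIs. Trdc was more even, with a median of 5 and a maximum of 16 UMIs.

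The 3 identifying genes overlapped within members. All 3 were found in 12 barcodes, Il17a with Cd163l1 in 16, Il17a with Trdv4 in 7 and Cd163l1 with Trdv4 in 4. Cd163l1 alone marked 13 members, Il17a alone 4 and Trdv4 alone 2. The deepest pair of members, with 9250 and 9235 UMIs, had 2 Il17a UMIs each, no Trdc UMI, and 2 and 1 Trac UMIs; the second had 1 Tcrg-C1 UMI. The name rests on little in this pair, and in some other members. Among these, 1 had 1 Cd163l1, 3 Trac and 1 Lck UMIs, with no Trdc or Tcrg-C1 UMI. Another had 2 Il17a UMIs and 1 Cd4 UMI, with no Trdc or Tcrg-C1 UMI.

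**Figure D1:**
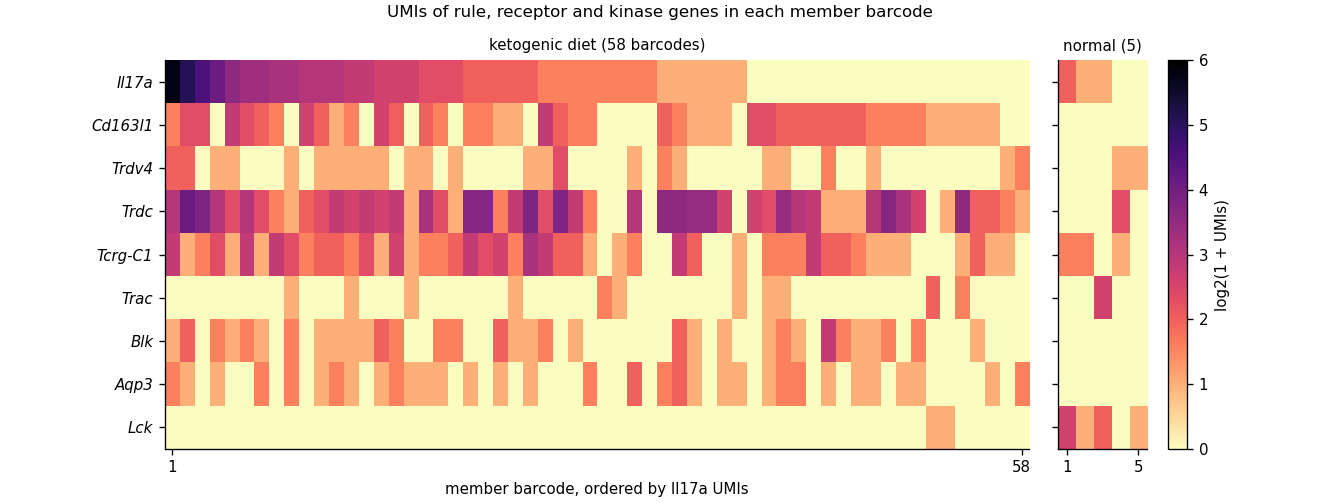
Columns are member barcodes (58 of the ketogenic diet library at left, 5 of the normal diet library at right), ordered by Il17a UMIs, and color is log2(1 + UMIs) of the gene in each row. Trdc runs through nearly all ketogenic diet members, whether or not Il17a was detected, while Lck appears in 2 of them and in 4 of the 5 normal diet barcodes.

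Members with and without detected Il17a had similar depth and similar levels of Blk and Aqp3. The 39 with Il17a had a median of 2172 UMIs, and the 19 without had 2203. Blk was 375 CPM (265 to 514) in members with Il17a and 390 CPM (235 to 609) in those without, and Aqp3 335 CPM (232 to 468) and 267 CPM (142 to 456). Cd163l1 was 749 CPM in members with Il17a and 801 CPM in those without, though the rule requires it of most barcodes that lack Il17a. Tcrg-C1 was 1084 CPM (891 to 1307) in members with Il17a and 595 CPM (399 to 855) in those without, and these intervals do not overlap. Nor do those of Fos, an immediate early transcription factor gene, which was 1094 CPM (900 to 1318) in members with Il17a and 226 CPM (113 to 404) in those without, with UMIs in 23 of 39 and 4 of 19 barcodes. These groups were defined by the cells' own Il17a counts within 1 library, so the differences were not tested.

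Other Il17 family and type 17 cytokines were scarce. Il17f had 4 UMIs in 3 members and none in other T cells. Il22, an epithelial defense cytokine, had 15 UMIs in 3 members, 80% of them in 1 barcode, against 1 UMI in other T cells. Ifng, the type 1 cytokine, had 4 UMIs in 3 members (26.6 CPM), against 555 UMIs (334 CPM) in 119 other T cells. Of 8 measured cytokine genes none was 2-fold higher in members than in other T cells and 3 were lower (Ifng, Il10 and Tnfsf8), with a median log2 ratio of −0.40, or −0.25 with genes at 0 set to a floor of 3 UMIs. Il10 had no UMI in members and 38 in other T cells, a bound of at least 1.14-fold lower. Ltb, the lymphotoxin beta gene, was the most abundant at 1066 CPM in members and 661 CPM in other T cells, followed by Tgfb1 (107 CPM and 147 CPM) and Areg (46.6 CPM and 68.0 CPM). Lta was 33.3 CPM in members and 16.8 CPM in other T cells.

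Across all genes the members differed from the other T cells of their library in a small share. Of 7119 genes with at least 20 UMIs over both groups, 197 (2.77%) were at least 2-fold higher in members and 348 (4.89%) at least 2-fold lower, after adding 20 CPM to each level. The median log2 ratio of all genes was −0.03. Without the deepest member, 233 genes were higher and 369 lower. The rule chose the cells from counts in this comparison, so its calls are a description. With 150148 UMIs in all members, 1 UMI was worth 6.66 CPM there and 0.602 CPM in the other T cells, which limits what can be said of low genes.

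The highest genes in members were led by Blk, Serpinb1a and Aqp3. Blk, the kinase, was 380 CPM (288 to 492, Poisson) in members and 3.61 CPM (1.32 to 7.86) in other T cells, a log2 ratio of 4.08. It was detected in 33 of 58 members and 5 of 469 other T cells, and, with each barcode thinned to 1000 UMIs, in 34.5% of members and 0.448% of the 446 other T cells deep enough. Serpinb1a, a serine protease inhibitor, was 453 CPM in members and 11.4 CPM in other T cells (log2 ratio 3.91), and Aqp3, a water and glycerol channel, 313 CPM and 6.62 CPM (3.65). Neither Blk nor Aqp3 was seen in any of the 353 C1q macrophage barcodes, and Serpinb1a was seen in 6. Those barcodes were chosen to lack UMIs of the T cell sum, so they set no background level for these genes.

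Surface and membrane genes followed. Ltb4r1, the leukotriene B4 receptor, was 433 CPM in members and 18.7 CPM in other T cells (log2 ratio 3.55), and Ramp1, a subunit of the receptor for the neuropeptide CGRP, 440 CPM and 54.1 CPM (2.63). Tmem176b was 932 CPM in members and 62.0 CPM in other T cells (3.54), and Tmem176a 579 CPM and 34.9 CPM (3.45). These neighbours, at chr6:48833818-48841496 on the minus strand and chr6:48840919-48847071 on the plus strand, overlap at the ends where transcription starts. The libraries used a 3 prime kit, which reads the other end of transcripts. Whether reads of the 2 genes were shared was not tested. Itgae, the alpha E integrin chain of tissue-resident lymphocytes, was 213 CPM in members and 23.5 CPM in other T cells (2.42). Mmp25, a membrane-bound matrix protease gene, was 127 CPM in members and 6.62 CPM in other T cells (2.46).

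The remaining high genes had varied roles. Actn2, an alpha-actinin best known from muscle, was 426 CPM in 36 members and 19.3 CPM in 20 other T cells (log2 ratio 3.51). Zbtb16, the transcription factor PLZF of innate-like T cells, was 113 CPM in members and 2.41 CPM in other T cells (2.57). Abi3bp (log2 ratio 3.29), Cryba4, a lens crystallin (3.14), the selenium transport protein gene Selenop (2.98), the keratin gene Krt83 (2.90) and Smpdl3a (2.32) completed the 16. All 16 stayed past 2-fold when members were compared with CD8-negative other T cells alone.

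Genes lower in members were led by Bcl2 and Lck. Bcl2, the survival factor gene, had 1 UMI in members (6.66 CPM, 0.169 to 37.1), against 651 UMIs (392 CPM) in other T cells, where 244 of 469 barcodes had it. The log2 ratio was −3.95 (−4.46 to −2.74). Lck, the kinase that starts signaling from the alpha-beta receptor, had 2 UMIs in 2 members (13.3 CPM) and 519 UMIs in 281 other T cells (312 CPM), a log2 ratio of −3.32 (−4.06 to −2.17). The 2 members with Lck had no Il17a or Tcrg-C1 UMI and 1 Cd163l1 UMI each, with 0 and 1 Trdc UMIs and 3 and 0 Trac UMIs. Bcl2 and Lck were also found in 39 and 19 of the 353 C1q macrophage barcodes. Those barcodes are cells themselves and have a greater median depth, so they set no background level for these genes. Whether the members' few UMIs are background was not tested. After thinning to 1000 UMIs no member had either gene, against 32.1% of other T cells for Bcl2 and 30.7% for Lck.

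Several lower genes had no UMI in members. Rgs16 had 0 UMIs in members and 271 in other T cells, which is at least 8.16-fold lower against a floor of 3 UMIs. Ctla2b was at least 5.93-fold lower (0 and 197 UMIs), the T cell surface receptor gene Cd6 at least 5.72-fold lower (0 and 190) and the adaptor gene Sh2d1a at least 4.46-fold lower (0 and 148). Igflr1 had 2 UMIs in members and 281 in other T cells.

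The rest were genes of killing and inhibition and the chemokine gene Ccl4. Nkg7, a cytotoxic granule protein, was 260 CPM in members and 2635 CPM in other T cells (log2 ratio −3.25), and Klrd1, a subunit of NK receptors, 107 CPM and 803 CPM (−2.70). Prf1, perforin, was 33.3 CPM in members and 304 CPM in other T cells (−2.60), and Lag3, an inhibitory receptor, 6.66 CPM and 153 CPM (−2.70). Ccl4 was 186 CPM in members and 1105 CPM in other T cells (−2.45), with 64.3% of the members' UMIs in 1 barcode. Against CD8-negative other T cells the log2 ratio of Ccl4 was −0.32, that of Prf1 −1.07 and that of Lag3 −1.44. Klrd1 was at −2.24 and Nkg7 at −2.39 there, so each of these differences was smaller without the CD8-positive cells.

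**Figure D2:**
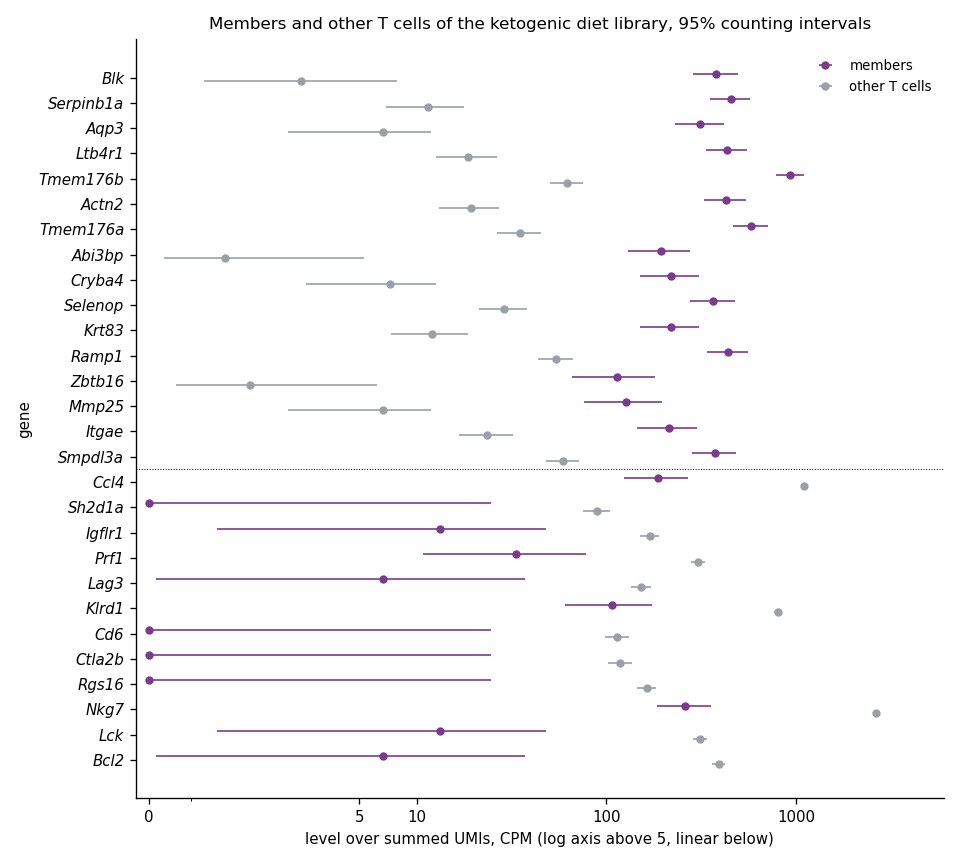
Levels of the 16 genes highest and the 12 lowest in members by the naming rule, in CPM of summed UMIs (log axis above 5, linear below), for members and other T cells of the ketogenic diet library with 95% Poisson intervals. No interval of the members overlaps that of the other T cells for any of the 28 genes, and Rgs16, Ctla2b, Cd6 and Sh2d1a sit at 0 in members.

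Transcription factors of the type 17 program were mixed. Of 18 measured genes on a list of 21, 6 were 2-fold higher in members and 3 lower, with a median log2 ratio of 0.02. Beside Zbtb16, Maf, which drives the gamma-delta 17 fate in mice, was 486 CPM in members and 95.1 CPM in other T cells (2.14), and Rora, a nuclear receptor gene, 293 CPM and 59.6 CPM (1.98). Ikzf3 (1.47), Bcl11b (1.28) and Runx1 (1.01) were also higher. Tbx21, encoding the type 1 factor T-bet, had no UMI in members and 68 in other T cells, and Eomes and Bhlhe40 were lower as well (−1.12 and −1.78). Id2, a factor of innate lymphocytes, was 406 CPM in members and 593 CPM in other T cells.

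Sparser factors on the list could not be measured. Sox13, a gamma-delta lineage factor gene, had 14 UMIs in 12 members, against 1 UMI in the other T cells. The circadian repressor gene Nr1d1 had 7 UMIs in members and 1 in other T cells. Both were under the minimum of 20 UMIs, although the other T cells held many more UMIs in all.

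Cytokine receptor genes differed in both directions. Il7r, the interleukin-7 receptor on which these cells depend, was 766 CPM in members and 247 CPM in other T cells (log2 ratio 1.56), Il18r1 200 CPM and 72.2 CPM (1.25), and Tnfrsf25, death receptor 3, 113 CPM and 8.42 CPM (2.23). Il2rb, the chain shared by the receptors of interleukin-2 and interleukin-15, was 153 CPM in members and 483 CPM in other T cells (−1.54), and Il21r was also lower (−1.35). These were 3 higher and 2 lower of 18 measured, with a median of 0.07. Il2rg, the common gamma chain, was 433 CPM in members and 306 CPM in other T cells, and Ifngr1 386 CPM and 512 CPM. The receptor genes for interleukin-1 and interleukin-23, which trigger interleukin-17 release, and Il17re had few UMIs: Il1r1 had 12 in members and 2 in other T cells, Il23r 9 and 1, and Il17re 10 and 5.

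Homing and residency genes leaned higher, with 8 of 21 measured genes 2-fold higher, 5 lower and a median of 0.47. Beside Ltb4r1 and Itgae, these were the integrin beta 7 gene Itgb7 (533 CPM in members, 147 CPM in other T cells), the residency receptor gene Cxcr6 (872 CPM and 254 CPM), Ccr2 (293 CPM and 77.6 CPM), Gpr183, Cxcr4 and S1pr1. Itgav (−2.11), Itga1 (0 UMIs in members), Ccr7, the lymph node homing receptor gene (−1.57) and Itga4 (−1.26) were among the lower genes. Selplg was 813 CPM in members and 469 CPM in other T cells, and Cd69, an early activation and residency gene, 659 CPM and 358 CPM. Ccr6, often used to mark interleukin-17 cells, had 6 UMIs in 6 members and 7 in 5 other T cells, below the minimum.

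On the list of gamma-delta 17 surface and signature genes, which holds 29 genes after the rule's own was left out, 12 of 26 measured were 2-fold higher in members and 6 lower, with a median of 0.80. Beside those named above, Ckb (1.88), Podnl1 (1.46), S100a6 (1.08), Capg (1.05) and S100a4 (1.05) were higher. S100a6 was the most abundant at 5934 CPM in members and 2804 CPM in other T cells, and Lgals1, a galectin gene, was 2424 CPM and 1843 CPM. The lower 6 included Cd27, which marks the interferon-producing gamma-delta subset in mice (39.96 CPM in members and 126 CPM in other T cells), Ly6c2 (346 CPM and 1713 CPM), Cd2 (99.9 CPM and 401 CPM), Cd9 and Cd81. This list was drawn up with knowledge of such cells and of these libraries, so its count is no independent support for the name.

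Receptor signaling genes split within the pathway. Of 14 measured, 3 were higher and 3 lower, with a median of −0.32. Blk, Cd247 and the adaptor Lat (586 CPM in members, 254 CPM in other T cells, log2 ratio 1.15) were higher, and Lck, Themis and the costimulatory receptor Cd28 (53.3 CPM and 153 CPM, −1.24) were lower. Themis, a thymic selection gene, had no UMI in members and 74 in other T cells. Zap70, which acts just after Lck, was 140 CPM in members and 103 CPM in other T cells (0.37), and Fyn, another Src-family kinase, 99.9 CPM and 105 CPM (−0.06). Ptprc, which encodes CD45, was 393 CPM in members and 783 CPM in other T cells (−0.96).

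Cytotoxic genes were low across the list: none of 18 measured was 2-fold higher, 14 were lower, and the median was −1.93. Gzmf had 3 UMIs in members (19.98 CPM) and 2118 in other T cells (1274 CPM), Gzmb was 513 CPM and 1720 CPM (−1.71), and Fasl 13.3 CPM and 113 CPM (−2.00). Srgn, the granule proteoglycan gene, was 1911 CPM in members and 1882 CPM in other T cells. Ctsw was 286 CPM in members and 684 CPM in other T cells (−1.20), and Tnfsf10, encoding TRAIL, 33.3 CPM and 55.3 CPM (−0.50). The median was −1.54 against CD8-negative other T cells alone, so it was less far below 0 without the CD8-positive cells. In the 49 deeper barcodes over a lineage limit it was 0.03.

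Chemokine genes were lower too. None of 8 measured was 2-fold higher, 6 were lower, and the median was −2.26, or −1.80 with genes at 0 set to the floor of 3 UMIs. Cxcl10 was 286 CPM in members and 501 CPM in other T cells. Ccl5 was 766 CPM in members and 2562 CPM in other T cells (−1.72), Ccl3 6.66 CPM and 248 CPM (−3.33), and Ccl2 6.66 CPM and 285 CPM (−3.52). Xcl1 was 806 CPM in members and 474 CPM in other T cells, but 93.4% of the members' UMIs came from 1 barcode.

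Checkpoint and costimulatory genes leaned lower. Of 14 measured checkpoint and costimulatory genes, 7 were lower, among them Ctla4 (46.6 CPM and 190 CPM) and Tnfrsf9 (93.2 CPM and 322 CPM), and Icos alone was higher (466 CPM and 215 CPM, 1.05). Their median was −1.01, or −0.77 with genes at 0 set to the floor. Tnfrsf18 was 113 CPM in members and 422 CPM in other T cells, with 64.7% of the members' UMIs in 1 barcode, and Tnfrsf4 was 180 CPM and 338 CPM, with 96.3% of the members' UMIs in 1 barcode. Vsir, encoding the inhibitory ligand VISTA, was 160 CPM in members and 92.6 CPM in other T cells (0.67). Pdcd1 was 127 CPM in members and 161 CPM in other T cells (−0.31).

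**Figure D3:**
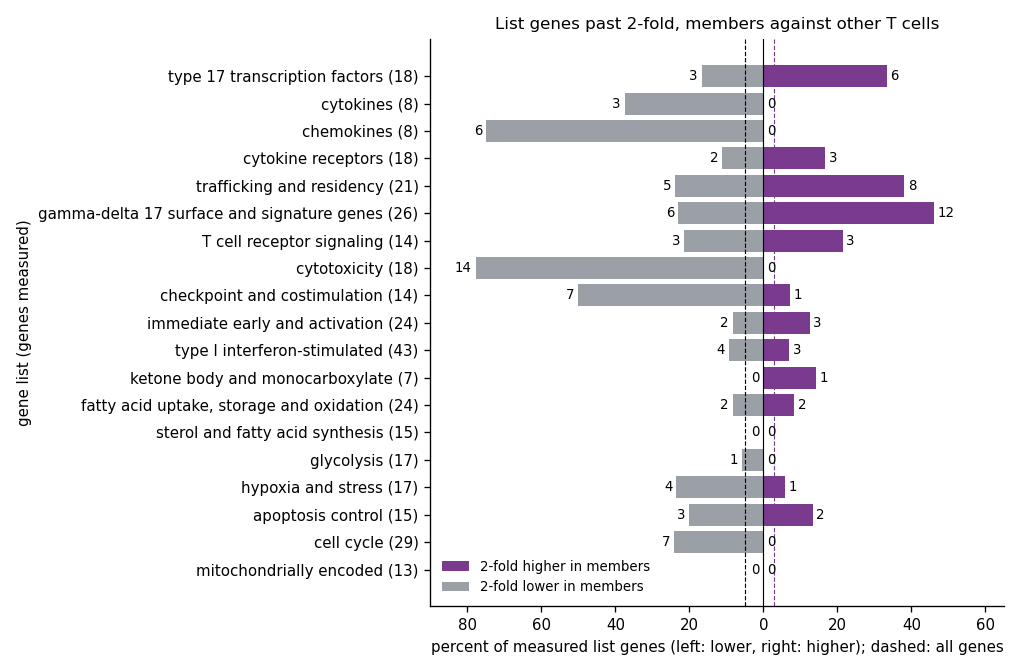
Percent of the measured genes of each list that were at least 2-fold lower (left) or higher (right) in members than in other T cells, with the number of genes at each bar and the genes measured in parentheses. Dashed lines mark the shares over all genes, 4.89% lower and 2.77% higher; cytotoxicity (14 of 18 lower) and gamma-delta 17 signature genes (12 of 26 higher) reach furthest.

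Genes of survival and activation added detail to the low Bcl2. Of 15 measured apoptosis genes, Bcl2a1a (93.2 CPM in members, 13.8 CPM in other T cells) and Bcl2a1b (659 CPM and 291 CPM) were higher. Bcl2, Bcl2l11, which encodes the death inducer BIM (13.3 CPM and 92.6 CPM), and Bcl2l1 (0 and 60 UMIs, at least 1.81-fold) were lower. The median was −0.08. The Bcl2a1 genes are near-identical copies, so reads may be split among them. Mcl1, another survival gene, was 333 CPM in members and 354 CPM in other T cells, and Bax, a death effector gene, 240 CPM and 165 CPM.

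Immediate early genes included a few that were higher in members. Of 24 measured immediate early genes, Fos (813 CPM in members, 233 CPM in other T cells, 1.72), Junb (2731 CPM and 1218 CPM, 1.15) and Nfkbid (1.04) were higher and Dusp2 (−2.12) and Nr4a3 (−1.37) lower, with a median of 0.32. Jund was 1052 CPM in members and 943 CPM in other T cells, and Nfkbia, an inhibitor of NF-kappa-B, 1039 CPM and 606 CPM.

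In the metabolic lists at most 2 genes were called in either direction. Of 7 measured ketone body and monocarboxylate genes Slc16a6, a monocarboxylate carrier, was higher (79.9 CPM in members, 25.3 CPM in other T cells) and none lower, while Oxct1, the enzyme that activates acetoacetate, had 6 UMIs in members and 87 in other T cells (−0.27). The list's median was −0.09, or 0.29 with Slc16a1, at 0 in members and 21 UMIs in other T cells, set to the floor. Ldha, lactate dehydrogenase A, was 786 CPM in members and 836 CPM in other T cells, Acat1 107 CPM and 50.5 CPM (0.84), and Slc16a3 46.6 CPM and 70.4 CPM.

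Lipid and sugar genes were mostly within 2-fold. Of 24 measured fatty acid genes, Dgat1 and Acaa2 were higher (1.17 and 1.16) and Fabp5 and Acsl5 lower (−2.72 and −1.03), with a median of 0.19. The lipid droplet genes Hilpda and Plin2 were 246 CPM and 160 CPM in members, against 244 CPM and 95.7 CPM in other T cells. None of 15 sterol and fatty acid synthesis genes passed 2-fold in either direction (median −0.32). They ran from Hmgcs1 at 0.73 and Msmo1 at 0.25 to Idi1 at −0.60 and Sc5d at −0.91. Acly had 5 UMIs in members and 61 in other T cells and Fdps 4 and 80. The list had 50 UMIs in all in members, a level at which the 20 CPM added shrinks the ratios. With 1 CPM added the median was −0.70. Of 17 glycolysis genes (median −0.16) Pfkfb3 alone passed, with no UMI in members and 38 in other T cells, a bound of at least 1.14-fold lower. Gapdh was 1485 CPM in members and 2104 CPM in other T cells, Aldoa 939 CPM and 930 CPM, and Pfkp 180 CPM and 120 CPM; Hk2 (0.17) and Slc2a1 (−0.83) had 3 UMIs each in members. All 13 mitochondrially encoded genes stayed within 2-fold (median 0.01), between mt-Cytb at 0.36 and mt-Nd5 at −0.55. Among these mt-Co3 was 4496 CPM in members and 3867 CPM in other T cells (0.22), with mt-Co1 at 0.03, mt-Co2 at 0.20 and mt-Nd1 at −0.18.

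Interferon and stress lists are read against the 2.77% of all genes that were higher and the 4.89% that were lower. Of 43 measured interferon-stimulated genes 3 were higher, among them Samhd1 (753 CPM in members, 321 CPM in other T cells), and 4 lower, among them Ifi27l2a (859 CPM and 4120 CPM, −2.24), with a median of 0.21. Isg15 was 1852 CPM in members and 1228 CPM in other T cells, Bst2 1645 CPM and 1065 CPM, and Slfn5 346 CPM and 152 CPM (1.09), while Ifi44 had no UMI in members and 73 in other T cells. Of 17 hypoxia and stress genes Ero1l was higher (1.03) and 4 were lower, with a median of −0.48. The heat shock genes Hspa8 and Hspa5 were 1778 CPM and 686 CPM in members, against 1821 CPM and 586 CPM in other T cells, and Hsp90aa1 340 CPM and 493 CPM. Hspa1a had no UMI in members and 92 in other T cells, and Ddit3 1 and 95.

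Cell cycle genes leaned lower. Of 29 cell cycle genes none was higher and 7 were lower, including Top2a (33.3 CPM and 155 CPM), with a median of −0.71, or −0.56 with genes at 0 set to the floor; 3 of the 7 (Cenpf, Ccnb2 and Nusap1) had no UMI in members and a bound under 2-fold. Ube2c had 1 UMI in members and 124 in other T cells. H2afz was 686 CPM in members and 896 CPM in other T cells, Hmgb2 473 CPM and 683 CPM, and Tubb5 366 CPM and 409 CPM, with Mcm3 (0.42) and Cenpa (0.18) the highest ratios. A UMI of any of 10 cycling genes was found in 10 of 58 members (17.2%, 8.59 to 29.4) and 119 of 469 other T cells (25.4%, 21.5 to 29.6), and after thinning in 10.3% and 15.2%. The thinned intervals, 3.89% to 21.2% and 12.04% to 18.9%, overlapped.

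Markers of other cell types are read here with the rule in mind, since it sets CD8 genes to 0 and limits Ncr1, Klre1, Lyz2, the C1q genes and the class II genes, which belong to the NK, macrophage and dendritic lists. Across the B cell, mast cell and red cell lists, which the rule does not use, no UMI was found. NK markers summed to 39.96 CPM (6 UMIs) in members, with Ncr1 and Klra8 at 0, and 202 CPM (335 UMIs) in other T cells. Neutrophil markers summed to 19.98 CPM (3 UMIs) in members, with Retnlg and Csf3r at 0, and 371 CPM (616 UMIs) in other T cells. Macrophage markers summed to 160 CPM in members and 195 CPM in other T cells, against 4882 CPM in barcodes of at most 100 UMIs, which hold free RNA. Dendritic markers summed to 199.8 CPM in members and 180 CPM in other T cells, with Flt3 at 0. Tumor and stromal markers summed to 153 CPM and 103 CPM, with Col1a1, Col3a1 and Krt18 at 0 in members; the members' UMIs were 15 of Rhox5, all in 1 barcode, and 8 of Cald1, all in 1 barcode. Regulatory T cell markers summed to 486 CPM in members and 696 CPM in other T cells, and those of group 2 innate lymphoid cells to 26.6 CPM and 49.9 CPM. The part of these cells' RNA in the members' values was not tested. Of the markers of group 3 innate lymphoid cells, which share Il22 and Il23r with these T cells, Kit was at 0 in members. Of 58 members 2 had a Cd4 UMI and 1 had Foxp3.

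Most Il17a UMIs of the ketogenic diet library lay outside the members. Of 755 Il17a UMIs in cells of the ketogenic diet library, 267 (35.4%) were in members, 186 in 21 barcodes over a lineage limit without CD8, 267 in 33 barcodes over a limit with a CD8 UMI, 22 in 5 barcodes with a CD8 UMI within the limits, and 13 in 5 barcodes under 2 T cell UMIs. The 33 barcodes with CD8 had a median of 22511 UMIs and held 206 Trdc UMIs beside 222 of Cd8a, and the 21 without held 101 Trdc UMIs. A further 23 Il17a UMIs were in barcodes that are not cells. In the normal diet library 5 Il17a UMIs were found, all in 3 members. The part of barcodes with more than 1 cell in these counts was not tested.

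**Figure D4:**
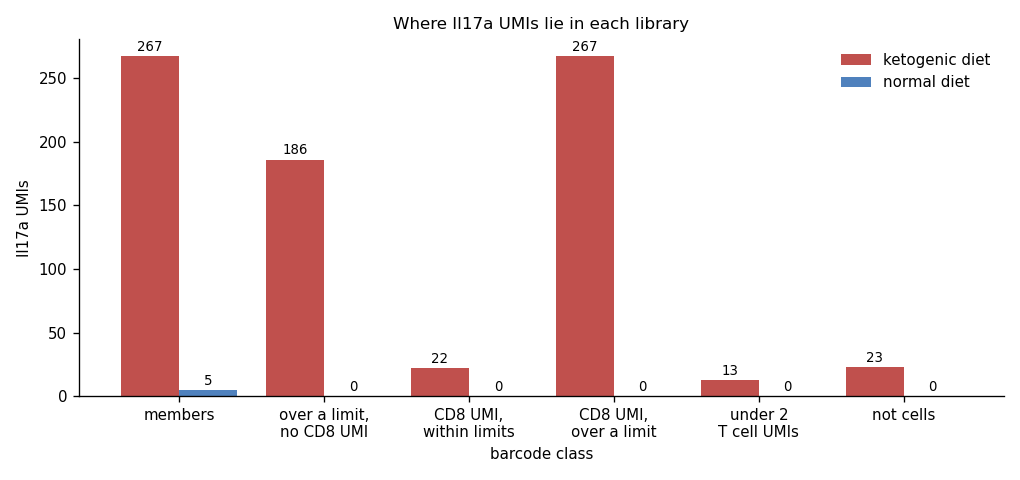
Il17a UMIs by barcode class, ketogenic diet library left and normal diet library right in each pair. The members hold 267 UMIs in the ketogenic diet library, as many as the barcodes with CD8 UMIs over a lineage limit, and the normal diet library holds 5, all in members.

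Genes outside the rule also differed between whole libraries. Over all cells, Aqp3 had 168 UMIs in the ketogenic diet library and 11 in the normal diet library, a ratio of levels of 13.7 (7.44 to 27.9), Blk 137 and 12 UMIs (10.2, 5.66 to 20.2), and Actn2 243 and 25 UMIs (8.69, 5.75 to 13.7). Sox13 had 37 and 3 UMIs (11.03, 3.49 to 55.9) and Tcrg-V6 22 and 2 (9.84, 2.42 to 86.3) in the ketogenic and normal diet libraries. Among 14130 genes with at least 20 UMIs over both libraries, 29 (0.205%) were at least 5-fold higher in the ketogenic diet library. Of the 16 genes highest in members, 4 passed 5-fold: Blk, Aqp3, Actn2 and Abi3bp (72 and 11 UMIs, 5.85). The 16 were picked as high in members of the ketogenic diet library, whose UMIs are part of these sums. Their count is therefore a description and no independent support.

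The rest of the 16 ranged from moderately higher to lower in the ketogenic diet library. Krt83 had a ratio of 1.89 (1.56 to 2.28), Serpinb1a 1.72 (1.51 to 1.97), Itgae 1.43 (1.20 to 1.71) and Ramp1 1.27 (1.18 to 1.36), with intervals above 1. The ratio was 1.41 for Zbtb16 (0.989 to 2.02), 1.09 for Tmem176a (1.02 to 1.17) and 1.07 for Smpdl3a (1.03 to 1.12). Ltb4r1 had 2538 of 2603 UMIs of the ketogenic diet library outside members and a ratio of 1.06 (0.999 to 1.12). For Tmem176b the ratio was 1.14 (1.08 to 1.21), for Cryba4 0.866 (0.704 to 1.07), for Selenop 0.748 (0.704 to 0.794) and for Mmp25 0.690 (0.610 to 0.781). Of the ketogenic diet library's UMIs, 80 of 137 for Blk and 121 of 168 for Aqp3 lay outside members. Il17f had 17 UMIs in the ketogenic and none in the normal diet library (at least 5.07-fold higher, floor of 3 UMIs), and Il22 40 and none (at least 11.9-fold higher). In sums over a library, fewer cells of a type and less RNA per cell cannot be told apart. The SCART2 gene 5830411N06Rik had 13 UMIs in each library and Tcrg-V4 had 10 in the ketogenic and 5 in the normal diet library.

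**Figure D5:**
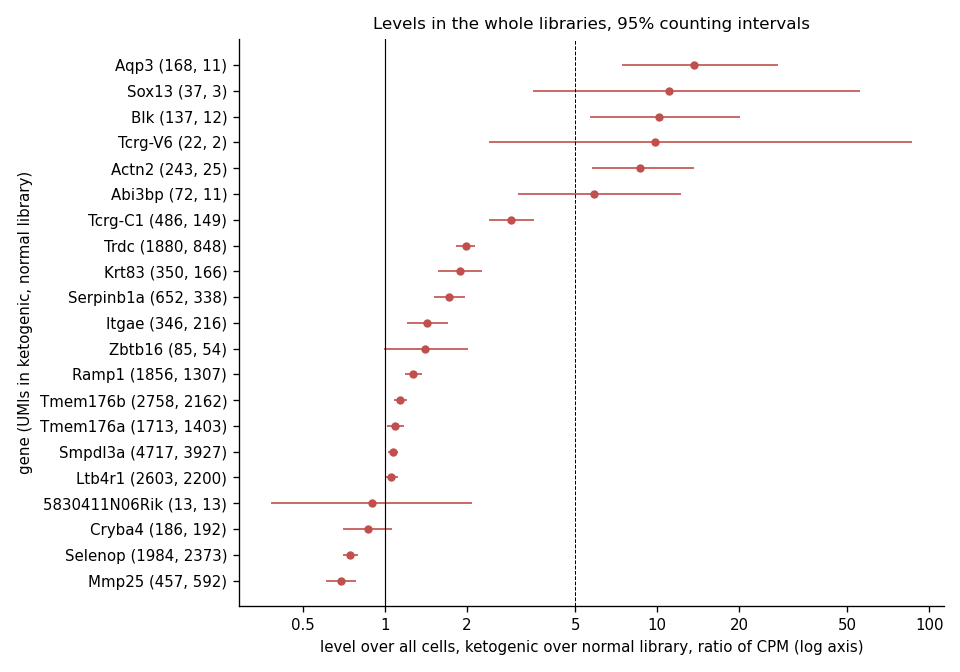
Ratio of the level over all cells, ketogenic over normal diet library (log axis, 95% counting intervals), for genes high in members and for receptor genes, with UMIs of the ketogenic and normal diet library in parentheses. Aqp3, Sox13, Blk, Tcrg-V6, Actn2 and Abi3bp lie to the right of the dashed line at 5, while Ltb4r1, Cryba4, Selenop and Mmp25 lie at or below about 1.

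Shared barcodes did not join the libraries at these cells. Of barcodes, 7 passed the cell filters in both libraries, and no member of the ketogenic diet library was among them. Of its 58 members, 20 had any UMI in the normal diet library, at most 4, as did 2568 of the 5873 cells, and none of the 5 normal diet Il17a UMIs lay in a barcode that held Il17a in the ketogenic diet library. The libraries held 42710007 UMIs (ketogenic) and 37575996 UMIs (normal), with medians of 3983 and 4226 UMIs per cell, and barcodes of at most 100 UMIs held 6.09% and 4.33% of all UMIs.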

How the data were processed

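The authors deposited raw UMI counts per gene and barcode, 1 unfiltered matrix for each of 2 libraries, 1 per diet. Cell Ranger 4 is named per the file headers, and Cell Ranger 6.0.0 and Seurat 3.2.0 per the submitters' processing notes, which name the builds GRCm38 and mm10; libraries used the Chromium 3.1 chemistry per the labels' protocols. Introns, strand and multi-mapping settings are not given in the sources used here.

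Barcodes were filtered and members chosen by the rule given at the start. The members, gene lists and markers were chosen with earlier results of these data known. Members' counts were summed, scaled to CPM and compared with the 469 other T cells that meet the same exclusions, CD8 aside, as log2 of both levels with 20 CPM added; a gene counted as measured at 20 UMIs over both groups and as called past 2-fold. Cells of 1 library are not replicates, so no test was made and no p-value is given. Poisson intervals of levels, Clopper-Pearson intervals of shares and exact conditional intervals of ratios are at 95% and cover counting error alone; intervals of log2 ratios combine opposite Poisson bounds. Thinning used 1000 UMIs per barcode and 23 shallower other T cells were left out. No doublet caller was run, and the limits on other lineages stood in for one.

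Named genes were the 16 highest and 12 lowest log2 ratios among genes detected in at least 20% of barcodes of the higher group with at most 25% of its UMIs in 1 barcode, the rule's 19 genes, mitochondrial, ribosomal and hemoglobin genes left out. From each list at least the 3 highest levels in members and the 2 largest ratios each way among measured genes are named; other genes were named after their values were seen. Rule genes were left out of the lists, and 1 listed gene was not found in the files by its symbol. A few listed genes are not reported here by name. The calculation was tested on simulated counts. Alternatives covered the rule, filters, denominators, pseudocounts, low-count filters, scaling, the comparison group, ambient RNA and single barcodes. Tables were handled with pandas 2.3.3, intervals came from scipy 1.17.1 and sums from numpy 2.4.6 under Python 3.11.15, and matplotlib 3.10.9 drew the figures.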

Additional observations from a re-analysis of the deposited data

Results flagged for a closer look

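Il17a appeared outside the members of the ketogenic diet library, in T cell barcodes with a CD8 UMI or over a lineage limit, while the normal diet library had none outside its members. There were 22 Il17a UMIs in 5 T cell barcodes with a CD8 UMI that met the lineage limits and are among the other T cells of the comparison, with 43 Trdc and 12 Trac UMIs and a median depth of 7754 UMIs. There were 186 Il17a UMIs in 21 T cell barcodes over a lineage limit without a CD8 UMI, with a median depth of 7968 UMIs, 101 Trdc, 34 Cd163l1 and 13 Blk UMIs. There were 267 Il17a UMIs in 33 T cell barcodes over a limit with a CD8 UMI, with a median depth of 22511 UMIs, 206 Trdc and 168 Trac UMIs. In members the median depth of barcodes with Il17a was 2172 UMIs.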

How the results depend on the processing

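No paired analysis was possible because each diet has 1 library, and for the same reason no library could be left out. The log2 ratio of member shares stayed positive under all 11 alternatives to the rule, the filters or the denominator. Asking for 2 UMIs of Il17a, Cd163l1 and Trdv4 left 1 normal diet member (0.0178%) and a log2 ratio of 5.61; the cause was not tested. Il17a alone gave a ketogenic diet share of 0.664% and 3 normal diet members, and Cd163l1 or Trdv4 alone gave 2 normal diet members. Without the NK, myeloid and class II limits, members numbered 107 (1.82%) in the ketogenic and 22 (0.392%) in the normal diet library. Shares were 11.01% and 1.39% of T cells under the same exclusions, and 1.73% in the ketogenic diet library without myeloid barcodes. Thinning to 1000 UMIs left 2 normal diet members.

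Genes 2-fold higher and lower numbered 515 and 1250 with 1 CPM added, 93 and 94 with 50 CPM added, and 67 and 141 with at least 100 UMIs. Of the 28 named genes, all stayed past 2-fold in 12 of 14 settings, 27 against CD8-negative cells, and 12 when barcodes over the limits replaced members, an alternative chosen after seeing the data. There 243 genes were higher and 56 lower. Log2 ratios reversed there for Itgae (−0.056), Ctla2b (0.0041), Prf1 (0.31) and Sh2d1a (0.0019), as did the medians of chemokines (0.059) and cytotoxicity (0.030). Comparisons with Trac-positive and with normal diet T cells were also added after seeing the data and gave 178 and 184 genes higher, 356 and 509 lower. Depth limits genes under 20 UMIs, the gamma and delta segments above all.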
